A study of Homo sapiens with 8 samples.

Results

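The genes described here are 10 genes of fatty acid synthesis, elongation and desaturation in LX-2 cells: ACLY, ACSS2, ACACA, FASN, ELOVL5, ELOVL6, SCD, FADS1 and FADS2, with the lipid droplet gene PLIN2. They were chosen by name, and all 10 were among the 16796 genes of the count files. LX-2 is an established human line of hepatic stellate cells (HSCs) with the features of activated, myofibroblastic HSCs (MF-HSCs), and a single immortalized line stands here for that cell type. All cells grew in medium with 5% fetal bovine serum, and the study describes no genetic change made to them for this comparison. Control cells received the vehicle DMSO, and OGTi cells were exposed for 24 h to 50 µM OSMI-1. This compound inhibits O-GlcNAc transferase (OGT), the enzyme that attaches O-GlcNAc to intracellular proteins. Each group had 4 libraries of polyadenylated RNA, labelled as biological replicates 1 to 4, and the treated and control cells of the same number were compared as a pair. The comparison asked how inhibition of OGT changed gene expression in these cells.

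De novo lipogenesis builds fatty acids from acetyl-CoA in the cytosol. Acetyl-CoA is made from citrate by ACLY or from acetate by ACSS2, is carboxylated to malonyl-CoA by ACACA, and is assembled into palmitate by FASN. ELOVL6 lengthens saturated and monounsaturated chains, SCD places a double bond in saturated chains, and FADS2, ELOVL5 and FADS1 act in that order on polyunsaturated fatty acids. Many of these genes are classical targets of the transcription factor SREBP-1, encoded by SREBF1. Quiescent HSCs store retinyl esters in lipid droplets, which they lose on activation, and PLIN2 is a protein of the droplet surface.

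Of the 10 genes, 9 were higher in OGTi cells and 0 were lower, at an adjusted p-value (q) of 0.05 or lower in DESeq2. Over all 14895 genes tested, 21.4% were called higher and 22.6% were called lower. The exception was ACACA, which did not pass the test. In these bulk samples, more transcript per cell and more cells that express a gene cannot be told apart. The largest rises were those of FADS2, SCD and FASN. In normalized counts, which are counts divided by a size factor per library, the OGTi libraries lay above all control libraries for 8 of the 10 genes, a pattern found in 18.8% of all genes tested. The groups overlapped for ACACA and PLIN2. The 10 genes together took 0.238% ± 0.0208 of all counts in control cells and 0.476% ± 0.013 in OGTi cells (SD, n = 4 each). FADS2, SCD and FASN had the most counts in both groups and weigh most in this share. The median log2 fold change of the 10 genes was 0.56, and that of all genes tested was 0.005.

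**Figure D1:**
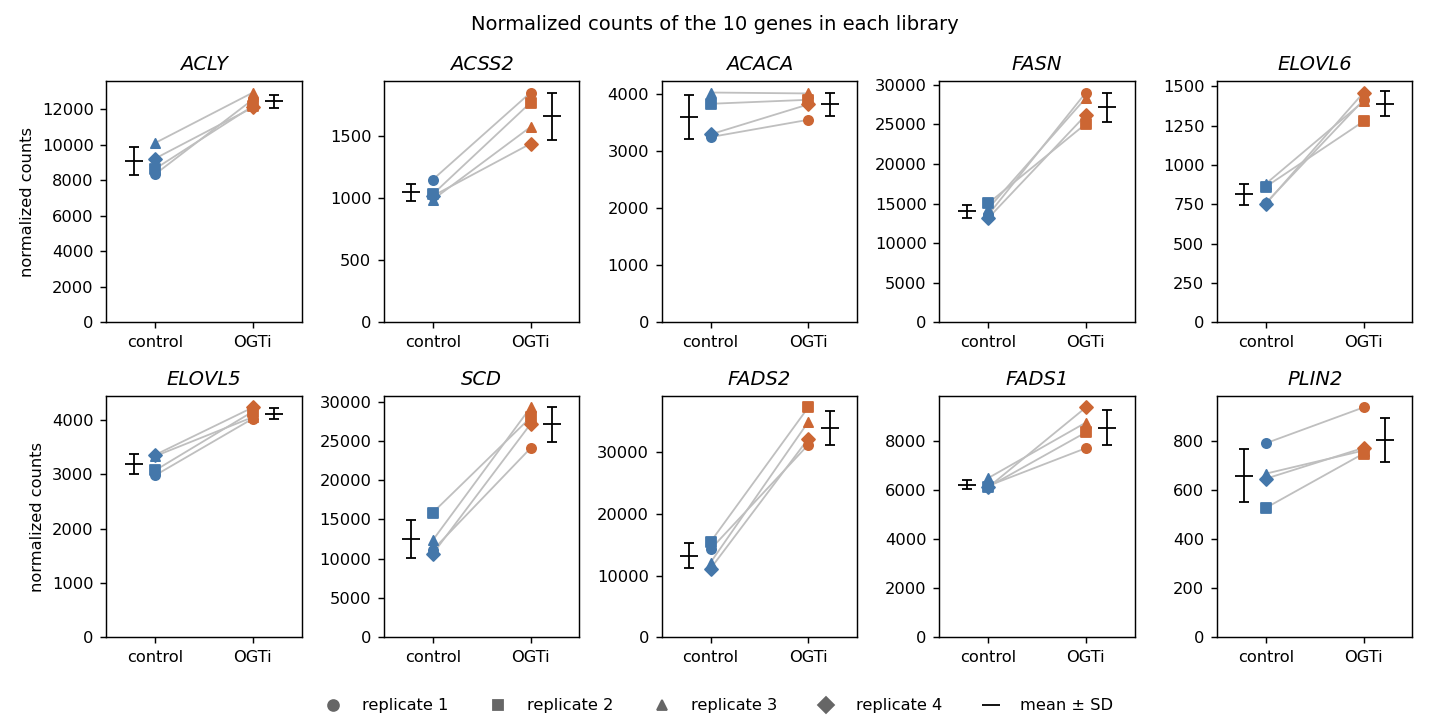
Normalized counts (vertical axes, starting at 0) of each of the 10 genes in control (blue) and OGTi (orange) libraries. Grey lines join libraries of the same replicate number, and black marks give the mean ± SD of 4 libraries. The groups are apart in 8 panels and overlap for ACACA and PLIN2.

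RefSeq promoter windows of 250 bases before a transcription start on GRCh38.p14 were at hand for 9 of the 10 genes, 14 windows in all, and there was none for FASN. The windows that overlapped no annotated exon numbered 4, and they are shown because they belong to genes that changed to different degrees: SCD (chr10:100346983-100347232, plus strand), ACLY (chr17:41919023-41919272, minus strand), PLIN2 (chr9:19127493-19127742, minus strand) and an internal start of ACACA (chr17:37299768-37300017, minus strand). Each is printed 5′ to 3′ on the strand of its gene, and capitals mark the letters of a CCAAT box (CCAAT or ATTGG), a GC box (GGGCGG or CCGCCC) or an E-box (CACGTG), searched on both strands.
SCD: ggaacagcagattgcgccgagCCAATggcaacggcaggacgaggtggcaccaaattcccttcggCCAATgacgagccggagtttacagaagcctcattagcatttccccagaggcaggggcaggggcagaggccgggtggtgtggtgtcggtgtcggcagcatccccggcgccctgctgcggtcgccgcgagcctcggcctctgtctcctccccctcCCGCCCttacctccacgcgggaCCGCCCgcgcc
ACLY: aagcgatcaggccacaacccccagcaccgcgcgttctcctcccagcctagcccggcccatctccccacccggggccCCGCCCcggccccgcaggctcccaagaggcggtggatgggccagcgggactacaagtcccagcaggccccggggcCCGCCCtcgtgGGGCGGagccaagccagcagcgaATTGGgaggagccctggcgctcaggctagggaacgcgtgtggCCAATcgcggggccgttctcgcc
PLIN2: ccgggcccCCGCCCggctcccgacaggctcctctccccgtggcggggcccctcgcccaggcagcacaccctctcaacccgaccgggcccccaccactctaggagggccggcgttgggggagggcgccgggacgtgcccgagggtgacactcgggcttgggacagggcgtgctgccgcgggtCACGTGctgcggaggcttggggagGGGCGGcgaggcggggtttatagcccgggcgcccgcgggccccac
ACACA: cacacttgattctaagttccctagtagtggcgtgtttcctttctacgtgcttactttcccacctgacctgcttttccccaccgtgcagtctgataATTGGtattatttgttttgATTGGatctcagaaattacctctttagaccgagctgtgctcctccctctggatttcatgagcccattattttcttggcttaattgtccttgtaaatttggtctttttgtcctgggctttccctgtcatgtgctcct
The SCD window held the CCAAT letters 2 times, at 229 and 186 bases before the start, and the GC box letters 2 times. The ACLY window held the CCAAT letters 2 times, at 65 and 23 bases before the start, and the GC box letters 3 times. The PLIN2 window held an E-box at 69 bases before the start and the GC box letters 2 times, with no CCAAT letters. The window of the internal ACACA start held the CCAAT letters 2 times and none of the others. The ACACA windows that overlapped exons held the GC box letters 5 times (from chr17:37406837) and 6 times (from chr17:37359097). Over the 9 genes, 5 had the CCAAT letters in at least 1 window, 8 had the GC box letters and 2 had the E-box. Of 35114 RefSeq windows of the same length, 32.0% held the CCAAT letters, 42.6% the GC box letters and 6.35% the E-box, and genes with several windows had more chances of a match. The letters TCACNCCAC, a form of the sterol response element bound by SREBPs, were in 0.883% of all windows and in 0 of the 14, which says only that these letters are not in these windows. Matches are descriptions of sequence and were not related to the changes in expression.

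The acetyl-CoA supplying enzymes both rose. ACLY (ATP citrate lyase, chromosome 17, 41866917 to 41930542, minus strand) had 8335, 8642, 10094 and 9219 normalized counts in control replicates 1 to 4 and 12544, 12170, 12932 and 12094 in OGTi replicates 1 to 4. The lowest OGTi library lay above the highest control library. The log2 fold change was 0.46 ± 0.07 (SE, q of 1.76e-10), a fold of 1.37. ACSS2 (acetyl-CoA synthetase, chromosome 20, 34872146 to 34927962, plus strand) was less abundant, with 1150, 1032, 988 and 1018 normalized counts in control cells and 1851, 1770, 1574 and 1439 in OGTi cells. Its groups did not overlap either, and its log2 fold change was 0.66 ± 0.09 (q of 1.43e-12), a fold of 1.58. Both genes were higher in 4 of 4 pairs. For ACLY the change was largest in pair 1 (0.59) and smallest in pair 3 (0.36), and for ACSS2 it was largest in pair 2 (0.78) and smallest in pair 4 (0.50).

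ACACA and FASN encode the committed and the final enzyme of palmitate synthesis, and they differed in response. ACACA (acetyl-CoA carboxylase, chromosome 17, 37084992 to 37406836, minus strand) had 3240, 3822, 4019 and 3287 normalized counts in control cells and 3542, 3892, 4003 and 3811 in OGTi cells. All 4 OGTi libraries fell within the range of the control libraries. The log2 fold change was 0.09 ± 0.07 (q of 0.325), with a 95% interval from -0.05 to 0.23, and 3 of 4 pairs were higher. A rise of the size seen in the other 9 genes at their estimates (0.30 to 1.37) lies above that interval, but a small rise or fall does not. FASN (fatty acid synthase, chromosome 17, 82078338 to 82098294, minus strand) had 13572, 15032, 14364 and 13163 normalized counts in control cells and 29036, 25093, 28361 and 26209 in OGTi cells. The OGTi libraries were all far above the control libraries. The log2 fold change was 0.95 ± 0.07 (q of 1.54e-37), a fold of 1.94, and ranged from 0.74 in pair 2 to 1.10 in pair 1.

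Both elongases rose, ELOVL6 by more than ELOVL5. ELOVL6 (chromosome 4, 110045846 to 110199199, minus strand), the elongase of palmitate, had 758, 861, 880.3 and 753 normalized counts in control cells and 1413, 1277, 1404 and 1460.0 in OGTi cells. The groups did not overlap, and the log2 fold change was 0.77 ± 0.10 (q of 1.4e-13), a fold of 1.71. ELOVL5 (chromosome 6, 53267398 to 53349179, minus strand), the elongase of polyunsaturated chains, had 2980.0, 3072, 3333 and 3357 normalized counts in control cells and 4026, 4155, 4053 and 4231 in OGTi cells. These groups did not overlap either, although the rise was small, with a log2 fold change of 0.37 ± 0.07 (q of 1.19e-06) and a fold of 1.29. The OGTi libraries of ELOVL5 varied little, with a coefficient of variation of 2.3%.

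All 3 desaturases rose, and FADS2 and SCD had the largest changes of the 10 genes. SCD (stearoyl-CoA desaturase, chromosome 10, 100347233 to 100364826, plus strand) had 11115, 15878, 12369 and 10639 normalized counts in control cells and 24079, 27997, 29272 and 27159 in OGTi cells. The lowest OGTi library was well above control replicate 2, the highest control library. The log2 fold change was 1.13 ± 0.08 (q of 1.77e-39), a fold of 2.19, and the pairs ranged from 0.82 in pair 2 to 1.35 in pair 4. FADS2 (delta-6 desaturase, chromosome 11, 61792980 to 61867354, plus strand) had 14275, 15473, 12120.0 and 11138 normalized counts in control cells and 31236, 37307, 34949 and 32214 in OGTi cells. The groups were far apart. Its log2 fold change of 1.365 ± 0.08 (q of 2.78e-64), a fold of 2.58, was above that of 95.7% of all genes tested. FADS1 (delta-5 desaturase, chromosome 11, 61799627 to 61829318, minus strand) had 6187, 6141, 6503 and 6124 normalized counts in control cells and 7727, 8374, 8773 and 9392 in OGTi cells. Its groups did not overlap, and its log2 fold change was 0.45 ± 0.07 (q of 1.92e-09), a fold of 1.37. FADS1 and FADS2 lie on opposite strands and their annotated spans overlap by 29692 bases, of which 490 bases are exonic in both, and the counting used the strand of the reads. FEN1, which shares 49 exonic bases with FADS2 on the same strand, had a log2 fold change near 0 (-0.06).

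PLIN2 (perilipin 2, chromosome 9, 19108375 to 19149290, minus strand) had the smallest rise among the genes called. It had 789, 526, 665 and 645 normalized counts in control cells and 935, 747, 760 and 770.3 in OGTi cells. Control replicate 1 lay above 3 of the 4 OGTi libraries, so the groups overlapped, but each pair was higher in OGTi cells, by 0.25, 0.51, 0.19 and 0.26 on the log2 scale. The log2 fold change was 0.30 ± 0.11 (q of 0.0129), a fold of 1.23. The call was lost without the replicate block (q of 0.0617 in DESeq2), without replicate 2 (log2 fold change of 0.23, q of 0.153) and without replicate 4 (0.31, q of 0.0619).

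**Figure D2:**
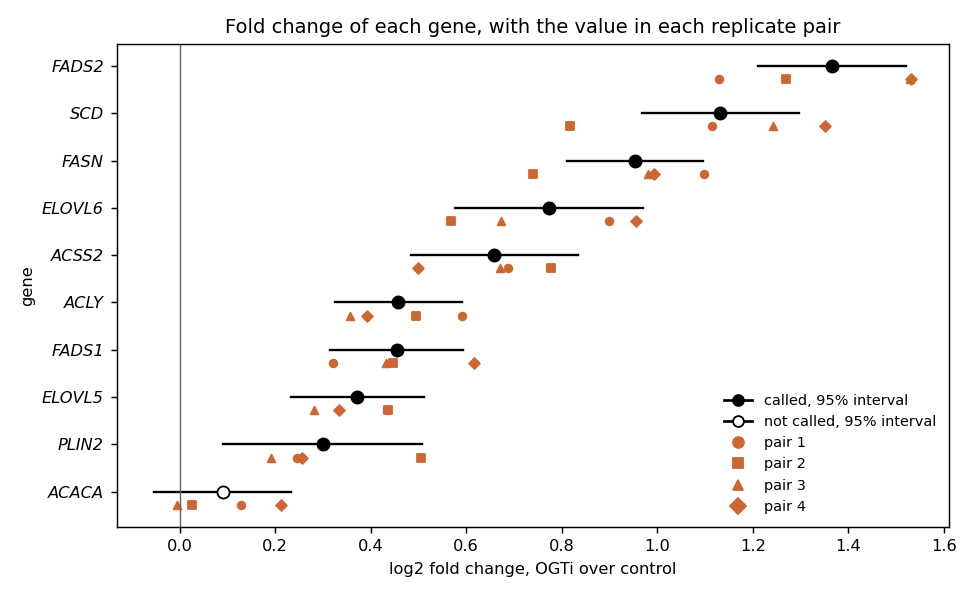
Log2 fold change of OGTi over control (horizontal axis) of each gene, with its 95% interval from DESeq2 (black) and the value in each of the 4 replicate pairs (orange). ACACA is the gene whose interval includes 0, and FADS2, SCD and FASN are highest.

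The control libraries were not ordered alike for all genes. Control replicate 2 was the highest control library for FASN, SCD and FADS2 and the lowest for PLIN2. Control replicate 3 was the highest for ACACA, ACLY, ELOVL6 and FADS1. Pair 2 gave the smallest change for FASN, SCD and ELOVL6 and the largest for ACSS2, ELOVL5 and PLIN2. Among control libraries the coefficient of variation was smallest for FADS1 (2.86%) and largest for SCD (18.9%).

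Ratios between these genes within a library, which do not depend on how libraries are scaled, showed that the rises were unequal. The FADS1 to FADS2 ratio of normalized counts was 0.433, 0.397, 0.537 and 0.55 in control cells and 0.247, 0.224, 0.251 and 0.292 in OGTi cells. The groups did not overlap, and the difference in mean log2 ratio was -0.91 (two-sided exact permutation p of 0.0286, 0.0476 after Benjamini-Hochberg adjustment over 5 ratios). The ELOVL6 to ELOVL5 ratio was 0.254, 0.28, 0.264 and 0.224 in control cells and 0.351, 0.307, 0.346 and 0.345 in OGTi cells. It was higher in every OGTi library than in any control library, by 0.40 on the log2 scale (exact permutation p of 0.0286, adjusted p of 0.0476). The ACACA to FASN ratio went from 0.239 to 0.28 in control cells down to 0.122 to 0.155 in OGTi cells, a log2 difference of -0.86 with the same p-values. A p of 0.0286 is the smallest that the 70 ways of dividing 8 libraries into groups of 4 allow. The mean log2 ratio of SCD to FASN was -0.18 ± 0.18 in control cells and -0.004 ± 0.185 in OGTi cells, and the groups overlapped (exact permutation p of 0.257). The ACSS2 to ACLY ratio was 0.0979 to 0.138 in control cells and 0.119 to 0.148 in OGTi cells and overlapped as well, with a log2 difference of 0.20 (exact permutation p of 0.171, adjusted p of 0.214). Both were higher in OGTi cells in 4 of 4 pairs. With the replicate block, as exact sign flips of the 4 paired differences, each of the 5 ratios had a p of 0.125, which is the smallest that 4 pairs allow.

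**Figure D3:**
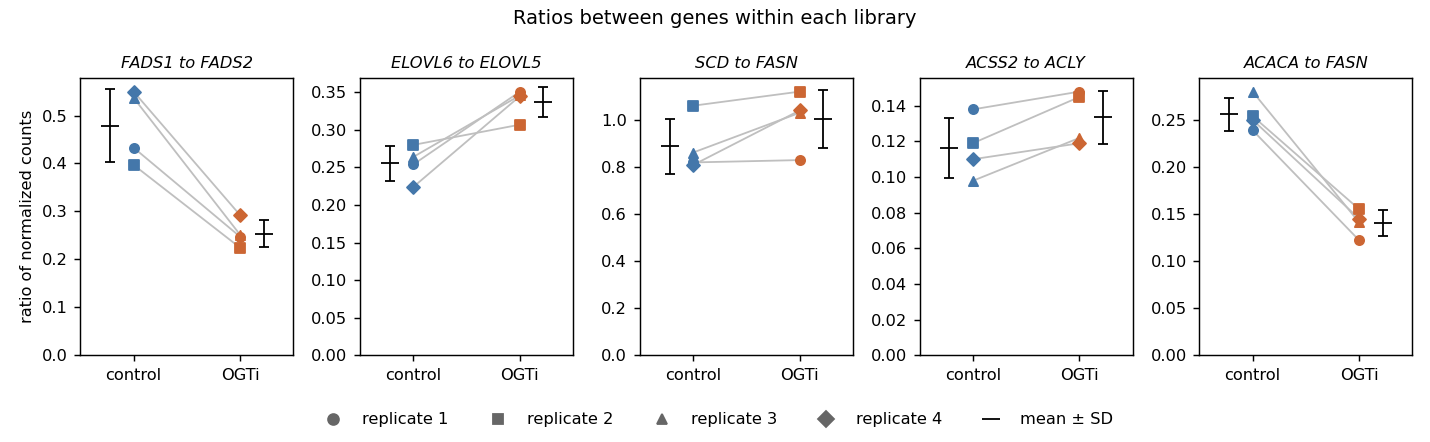
Ratio of normalized counts of the first gene to the second within each library (vertical axes, starting at 0), with grey lines joining libraries of the same replicate number and black marks for the mean ± SD of 4 libraries. FADS1 to FADS2, ELOVL6 to ELOVL5 and ACACA to FASN do not overlap between groups.

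Levels of different genes were compared per length of transcript, as TPM (transcript counts per kilobase, scaled to the same total in each library). In control cells the order of the mean levels was FADS2 (429 ± 66.9 TPM, SD, n = 4), SCD (239 ± 48.3), ACLY (211 ± 19.5), FASN (166 ± 12.3), FADS1 (143 ± 5.57), ELOVL5 (115 ± 7.01), ACSS2 (36.2 ± 2.2), ACACA (35.9 ± 4.4), PLIN2 (34.5 ± 5.37) and ELOVL6 (12.4 ± 1.2). The library ranges of SCD and ACLY overlapped, as did those of ACSS2 and ACACA and those of ACACA and PLIN2, so the order within these pairs was not larger than the spread between libraries. FADS2 was above 97.7% of all genes with a length, and ELOVL6, the lowest of the 10, was above 49.4%. In OGTi cells FADS2 reached 1132 ± 71.9 TPM and SCD 534 ± 44.6 TPM. By mean, FASN (332 ± 25.6 TPM) then stood above ACLY (299 ± 11.8 TPM), and PLIN2 (43.7 ± 4.98 TPM) above ACACA (39.3 ± 2.19 TPM). The OGTi library ranges overlapped for FASN (296.2 to 353.6 TPM) and ACLY (283.2 to 311.8 TPM). They also overlapped for PLIN2 (39.36 to 50.79 TPM) and ACACA (36.46 to 41.38 TPM). Within each OGTi library, FASN was above ACLY and PLIN2 above ACACA. The order depended on the length used. With the union of all exons of a gene as its length, control SCD had 432 TPM and FADS2 227 TPM.

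**Figure D4:**
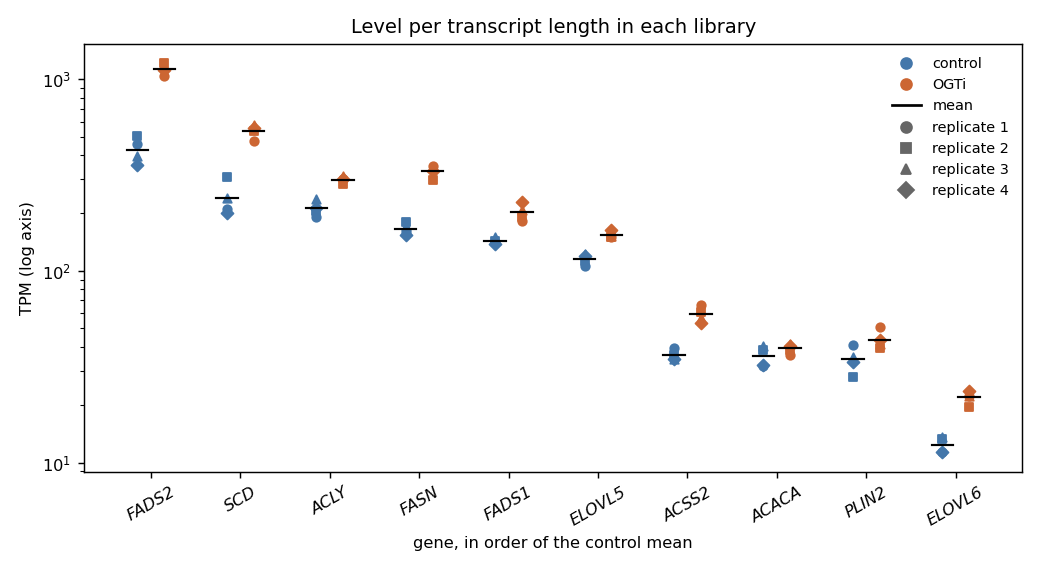
Level per transcript length, in TPM on a log axis, of each gene in control (blue) and OGTi (orange) libraries, ordered by the control mean, with black lines for means. FADS2 is highest in both groups and ELOVL6 lowest.

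Of 18 regulators of the pathway tested, 6 were called higher (33.3%, against 21.4% of all genes) and 4 lower (22.2%, against 22.6%), with a median log2 fold change of 0.12. SREBF1 had 1061, 1449, 1061 and 1018 normalized counts in control cells and 1511, 1342, 1496 and 1348 in OGTi cells. Control replicate 2 lay within the OGTi range, and 3 of 4 pairs were higher. Its log2 fold change was 0.33 ± 0.11 (q of 0.00945), and the call was lost without replicate 1 (0.26, q of 0.0852), replicate 3 (0.26, q of 0.107) or replicate 4 (0.30, q of 0.0812). Control replicate 2 was also the highest control library for FASN, SCD and FADS2. SREBF2, which encodes the SREBP that acts mainly on cholesterol genes, was lower in 4 of 4 pairs (log2 fold change of -0.27 ± 0.06, q of 9.06e-05). SCAP, the escort protein of SREBPs, did not pass the test (0.15 ± 0.07, q of 0.0739). INSIG1, which holds SCAP in the endoplasmic reticulum and is itself an SREBP target, had 2502, 3167, 2487 and 2246 normalized counts in control cells and 6101, 5712, 6541 and 6983 in OGTi cells. Its groups were far apart, with a log2 fold change of 1.29 ± 0.10 (q of 3.67e-34).

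The other named regulators had few counts, with the exception of NR1H2. MLXIPL, which encodes the carbohydrate-responsive factor ChREBP, had 5.84, 2.82, 0 and 5.2 normalized counts in control cells and 12.8, 18.1, 6.73 and 17.0 in OGTi cells. The groups did not overlap, and its log2 fold change of 2.20 ± 0.86 (q of 0.0261) rested on few reads and was not called without replicate 2 (q of 0.14), replicate 3 (q of 0.102) or replicate 4 (q of 0.0879). PPARG had 29.2, 47.9, 74.7 and 44.7 normalized counts in control cells and 4.57, 15.1, 16.3 and 8.01 in OGTi cells. All OGTi libraries lay below the control libraries (log2 fold change of -2.21 ± 0.45, q of 5.7e-06). The liver X receptor genes differed in sign. NR1H2 was lower in OGTi cells (-0.42 ± 0.09, q of 1.09e-05), and NR1H3 averaged 48.7 ± 5.73 normalized counts without and 71.5 ± 8.5 with OSMI-1 (0.55 ± 0.29, q of 0.114).

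Of 7 enzymes that supply citrate and NADPH for fatty acid synthesis, 4 were called higher (57.1%, against 21.4% of all genes) and 1 lower (14.3%, against 22.6%), with a median log2 fold change of 0.34. IDH1 and PGD, which generate cytosolic NADPH, had log2 fold changes of 0.79 ± 0.09 (q of 7.74e-19) and 0.79 ± 0.09 (q of 6.48e-19). CS, the mitochondrial citrate synthase, was lower (-0.81 ± 0.06, q of 7.71e-35), from 10124 ± 789 to 5774 ± 512 normalized counts. Each of these 3 genes changed in the same direction in 4 of 4 pairs.

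Of 20 other synthesis, elongation and desaturation enzymes, 7 were higher (35%, against 21.4% of all genes) and 6 lower (30%, against 22.6%), and the median log2 fold change was 0.009. No test compared them with the 10 genes. ACACB, the mitochondrial acetyl-CoA carboxylase, rose by 0.59 ± 0.10 on the log2 scale (q of 1.11e-08), from 904 ± 89.7 to 1360.0 ± 140 normalized counts, where ACACA did not pass the test. ELOVL2, the elongase that follows ELOVL5 on long polyunsaturated chains, was lower (-1.61 ± 0.11, q of 7.08e-50), from 1364 ± 138 to 446 ± 47.6 normalized counts. ELOVL4 was higher (1.18 ± 0.21, q of 1.01e-07). SCD5 and FADS3, the relatives of SCD and of FADS1 and FADS2, are named here after their values were seen. SCD5 was lower (-0.30 ± 0.09, q of 0.00461), and FADS3 did not pass the test (0.03 ± 0.09, q of 0.847).

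Of 13 acyl-CoA synthetases fitted, 2 had too few counts for a q. Of the 13, 4 were higher (among them SLC27A4, 0.77 ± 0.08, q of 2.99e-22, and ACSF2, 0.76 ± 0.11, q of 4.01e-11) and 4 were lower (among them SLC27A3, -1.45 ± 0.28, q of 1.32e-06), which is 30.8% in each direction against 21.4% and 22.6% of all genes. Of 13 triglyceride synthesis genes tested, 5 were higher (38.5%) and 2 lower (15.4%). The acyltransferases of the last step of triglyceride synthesis went opposite ways. DGAT1 rose by 1.35 ± 0.10 (q of 3.44e-38), from 675 ± 85.9 to 1720.0 ± 80.6 normalized counts, and DGAT2 fell by 1.46 ± 0.20 (q of 3.08e-12), from 212 ± 54.4 to 77.4 ± 20.3, all changes on the log2 scale. LPIN1, a phosphatidate phosphatase, rose by 0.97 ± 0.08 (q of 1.66e-34). Of 15 lipid droplet proteins and lipases other than PLIN2, 1 of which had no q, 5 were higher (33.3%) and 2 lower (13.3%), and those named were the lysosomal lipase LIPA (0.71 ± 0.09, q of 1.51e-14), the droplet assembly gene BSCL2 (0.61 ± 0.10, q of 1.56e-08) and the triglyceride lipase PNPLA2 (0.51 ± 0.09, q of 1.67e-08). Other perilipins were scarce or did not pass the test: for PLIN3 the log2 fold change was 0.06 ± 0.09 (q of 0.637), and PLIN1 had 0 to 12.2 normalized counts per library.

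Of 7 genes of fatty acid uptake and binding fitted, 2 of which had no q, DBI was higher (0.29 ± 0.07, q of 0.00024) and CAV1 was lower (-0.99 ± 0.07, q of 6.41e-45), which is 14.3% in each direction. Of 27 oxidation genes fitted, 1 of which had no q, 10 were higher (37%, against 21.4% of all genes) and 3 lower (11.1%, against 22.6%), with a median log2 fold change of 0.20, and the 13 calls became 7 without replicate 2 and 8 without replicate 3. ETFB, an electron carrier of beta-oxidation, was higher (0.77 ± 0.11, q of 7.99e-11), and ECI2 was lower (-0.98 ± 0.10, q of 1.24e-22). ANGPTL4, a secreted inhibitor of lipoprotein lipase, had 2.92, 5.64, 11.5 and 13.5 normalized counts in the control libraries and 219, 55.2, 58.6 and 84.1 in the OGTi libraries. The groups did not overlap, and OGTi replicate 1 was far above the rest of its group. Its log2 fold change was 3.46 ± 0.48 (q of 9.19e-12), and 2.74 without replicate 1 (q of 1.3e-06). Cholesterol synthesis, the other branch fed by cytosolic acetyl-CoA, had 18 of 20 genes higher and 0 lower, with a median log2 fold change of 0.72, led by TM7SF2 (2.80 ± 0.13), MVD (1.64 ± 0.09) and DHCR7 (1.33 ± 0.08). Like the 10 genes described here, of which 90% were called higher, this list stood far above the 21.4% of all genes.

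**Figure D5:**
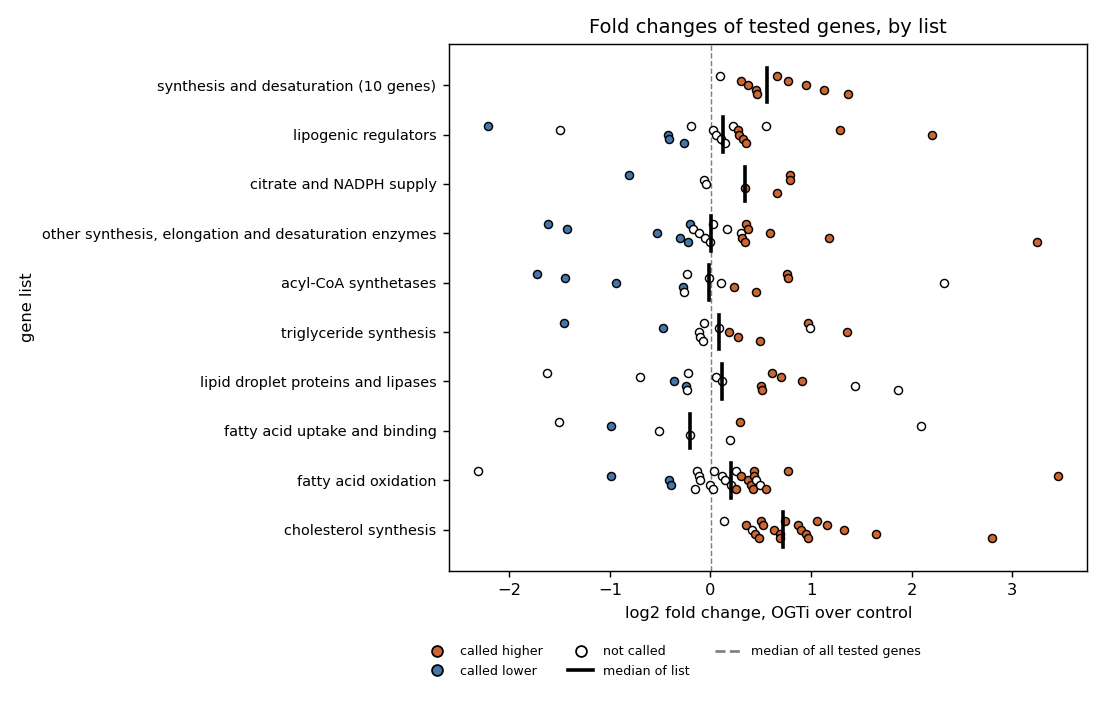
Log2 fold change of OGTi over control (horizontal axis) of each tested gene, by list (vertical axis), with filled points for called genes, open points for genes not called or without a q, and black bars for the median of each list. The 10 genes of synthesis and desaturation and the cholesterol synthesis genes lie to the right of the dashed line, which is the median of all genes tested.

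The genes whose log2 normalized counts followed FASN most closely over the 8 libraries, among 10993 genes compared, were LPIN1 (Pearson r of 0.992), ALDH2 (0.990), ARNTL (0.990), TRIM25 (0.990) and MACO1 (0.990). The 8 points share the treatment contrast, and these r values are a description. After the group means were removed they were 0.677, 0.654, 0.76, 0.544 and 0.56. Of the other 9 genes, ELOVL6 was nearest to FASN (r of 0.988, place 10 of 10993; 0.717 after the group means were removed), followed by FADS2 (0.969) and SCD (0.964). PLIN2 (0.632) and ACACA (0.442) were farthest from FASN. After the group means were removed, r with FASN was 0.433 for SCD, 0.357 for ACACA, 0.244 for ACLY, 0.158 for FADS2, 0.0359 for ACSS2, -0.0956 for PLIN2, -0.257 for FADS1 and -0.377 for ELOVL5. Each lies below the r of that gene over all 8 libraries, which includes the treatment contrast.

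The libraries held 24166756 to 28201215 counts, and the 8 size factors lay between 0.87 and 1.09. The OGT transcript was not used as a check of treatment, since OSMI-1 acts on the protein. Of the stellate markers, COL1A1, PDGFRB and VIM were abundant, while DES, LRAT and LUM were near 0 and HAND2 and DCN had under 10 counts in all. The 9 fitted, 3 of which had no q, included 5 called lower in OGTi cells (55.6%, against 22.6% of all genes) and 0 called higher. The summed level of the stellate list was 5522 to 6496 TPM in control and 4610 to 6026 TPM in OGTi libraries. VIM, which did not pass the test, made up most of that sum (4407 ± 372 TPM in control and 4301 ± 675 TPM in OGTi cells), while the level of COL1A1 went from 1433 ± 99.9 to 766 ± 83.2 TPM and that of COL3A1 from 92.9 ± 24.7 to 16.6 ± 1.82 TPM. Fatty acid synthesis genes are also expressed by hepatocytes and adipocytes. The summed hepatocyte list was 2.32 to 5.08 TPM in control and 10.4 to 17.7 TPM in OGTi libraries. In that list CYP2E1 was called higher (1 of 3 tested, 33.3% against 21.4% of all genes, a fold of 4.91). SERPINA1 did not pass the test, and APOA1 had 1 count over all libraries. The median log2 fold change of the 3 was 2.24, which is the estimate of a marker that did not pass the test. The adipocyte list was 4.32 to 5.21 TPM in control and 2.89 to 5.49 TPM in OGTi libraries, with 0 of 3 tested genes called and ADIPOQ at 6.01 counts in all. The endothelial list was 0.884 to 1.67 TPM in control and 0.234 to 0.474 TPM in OGTi libraries, with CDH5 called lower (1 of 3 tested, -3.31 ± 0.62, q of 5.83e-07). Of 2 cholangiocyte markers tested, KRT7 was lower (-1.05 ± 0.26, q of 0.000229) and SOX9 higher (0.35 ± 0.12, q of 0.00715), at summed levels of 20.7 to 33.5 TPM in control and 26.5 to 37.5 TPM in OGTi libraries. The macrophage list was 4.43 to 7.54 TPM in control and 3.94 to 8.5 TPM in OGTi libraries, with 0 of 4 tested called. The part of these markers in the changes of the 10 genes was not tested.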

How the data were processed

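Polyadenylated RNA of 4 control and 4 OGTi cultures of LX-2 cells was sequenced from both ends with a strand-specific protocol. The authors aligned reads to hg38 with Bowtie2 2.3.5.1 and counted them per gene with RSEM 1.3.1, and the deposited files hold expected counts (estimated counts, not scaled for depth), 1 file per library. A deposited comparison table holds the authors' fold changes, standard errors, Wald statistics and p-values and was not used.

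Expected counts were rounded, and the 14895 genes with a total of at least 10 were compared by the DESeq2 1.42.0 Wald test (R 4.3.3), with replicate number as a block as in the study's methods, median-of-ratios size factors and no shrinkage. A gene was called at a Benjamini-Hochberg q of 0.05 or lower. For replicates 1 to 4, deviations from the group mean correlated at 0.372, 0.391, 0.165 and 0.327 between libraries of the same number (10994 genes, which are not independent), while control replicate 3 was closer to OGTi replicate 4 (0.343). The block follows the methods' pairing of cultures. Alternatives were no block, edgeR 4.0.16 with and without the block, TMM factors, no filter and leaving out each replicate. The fits were also run on simulated counts with far fewer changed genes than were called here and with no replicate effect. That run could not check the replicate block.

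Ratios within libraries were compared with two-sided exact permutation tests. TPM used the length of 1 transcript per gene from GENCODE release 44 on GRCh38, the build of the files, which give symbols only; 94.1% of genes matched. ELOVL6 had fractional counts in 4 of 8 libraries, FADS1 in 1 and the other 8 genes in 0.

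The genes and lists were chosen with earlier results of these data known. Named were the 10 genes, 7 regulators fixed by name, the 3 called genes of the largest absolute Wald statistic in each of 9 lists, and the 5 genes nearest to FASN by Pearson correlation of log2(normalized count + 1) at a mean of at least 100. Intervals cover 95%. Replicates are labelled biological, and p-values measure the spread between these cultures of a single line.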

Additional observations from a re-analysis of the deposited data

Results flagged for a closer look

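In a group of 4 libraries, a library was set apart when its gap to the nearest of the others took an unusually large share of the range of the group by Dixon's criterion. Among 92 groups of values tested, 5 held such a library, where chance gives about 4.6 (1 in 20). For FADS1 it was control replicate 3, at 6503 normalized counts, where the rest of the control group lay between 6124 and 6187. For PLIN2 it was OGTi replicate 1, at 935 normalized counts, where the rest of the OGTi group lay between 747 and 770.3, and control replicate 1 was also the highest control library for this gene. Control replicate 2 stood apart for 2 regulators, SREBF1 (1449 normalized counts, the rest 1018 to 1061) and NR1H3 (57.3, the rest 45.8 to 46.0). The ELOVL6 to ELOVL5 ratio of OGTi replicate 2 was 0.307, where the rest of its group lay between 0.345 and 0.351, and that value still lay above all control libraries.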

How the results depend on the processing

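No direction was reversed under any alternative. Of the 10 genes, 8 or 9 were called higher and 0 lower in each fit. Without the replicate block, 8 were called, and PLIN2 was the gene lost (log2 fold change of 0.29, q of 0.0617 in DESeq2 and 0.0669 in edgeR). Among the other named genes the block changed the call of NR1H3 alone, which DESeq2 made without the block (q of 0.0473) and not with it (q of 0.114), and edgeR made neither without the block (q of 0.0532) nor with it (q of 0.0539). Leaving out a replicate took the log2 fold change of FASN from 0.91 to 1.02, of FADS2 from 1.31 to 1.44, of SCD from 1.06 to 1.24 and of ACACA from 0.05 to 0.12, and it took the oxidation genes called in either direction from 7 (without replicate 2) to 11 (without replicate 1), with 8 without replicate 3, against 13 in all libraries. The genes called over all numbered 6541, and 5127 to 5690 with a replicate left out. As paired sign flips, with the replicate block, the ratios FADS1 to FADS2 (-0.91), ELOVL6 to ELOVL5 (0.40) and ACACA to FASN (-0.86) had a p of 0.125, since 4 pairs allow no smaller one. The length definition moved 9 of the 10 control TPM levels by more than the SD between libraries. With few libraries of a single line and a single dose and time, the values describe these cultures. Levels of transcripts were measured, not of proteins or lipids.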
